A study of Homo sapiens with 16 samples.

Results

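The baseline miRNA profile of OE19 cells, a human esophageal adenocarcinoma (EAC) cell line, was examined on the 8 arrays of the series that GEO labels as control, of 16 arrays in all. OE19 is 1 established line, and the control cells received no telmisartan, whereas the other 8 arrays came from OE19 cells exposed to 100 μM telmisartan for 48 h and were not analysed here. Total RNA was labeled with a single dye and hybridized to an oligonucleotide chip with 2565 human miRNA probes, 15 of which name more than 1 miRNA. The labels do not state whether the 8 arrays came from separate cultures, so every p-value below measures only the spread between arrays, which may be technical. Each statement was checked in arrays 1 to 4 and in arrays 5 to 8, because these 2 sets of label numbers stand apart in the heat map of the study.

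MicroRNAs are short RNAs cut from hairpin precursors, and each hairpin can give a miRNA from its left arm (5p) and one from its right arm (3p). The bases at positions 2 to 8, called the seed, pair with target mRNAs, so miRNAs with the same seed are counted as a family. In intestinal-type columnar epithelium miR-192, miR-194 and miR-215 are the characteristic miRNAs, whereas squamous esophageal epithelium is known for miR-203 and miR-205. The miR-200 family keeps epithelial cells from becoming mesenchymal, let-7 is a tumor suppressor family, and the miR-17-92 cluster promotes proliferation.

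The 4 brightest miRNA probes on average, miR-4454, miR-7975, miR-7977 and miR-1260b, are shown first with miR-1260a because their mature sequences share the letters CACCA at the 3′ end, or 1 base before it in miR-1260b. Sequences and positions here are those of RefSeq on GRCh38.p14, written 5′ to 3′, and the capitals mark these 5 letters, which were chosen after the values had been seen.
miR-4454: ggauccgagucacggCACCA
miR-7975: auccuagucacggCACCA
miR-7977: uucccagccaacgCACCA
miR-1260b: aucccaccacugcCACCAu
miR-1260a: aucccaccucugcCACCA
The last 13 bases of miR-4454 and miR-7975 are identical, and both share their last 6 bases with miR-7977. CCA is also the end that cells add to every tRNA. miR-4454 lies at chr4:163093607-163093626 on the minus strand, miR-7975 at chr19:55123225-55123242 on the minus strand and miR-7977 at chr3:176515103-176515120 on the plus strand. miR-1260b lies at chr11:96341447-96341465 on the plus strand within the span of MAML2, and miR-1260a at chr14:77266231-77266248 on the plus strand within the span of NGB. Exons and introns were not compared, nor were the strands of the host genes.

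The next set holds the leading families with lower miRBase numbers, and here the capitals mark the seed.
let-7a-5p: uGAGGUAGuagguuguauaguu
let-7d-5p: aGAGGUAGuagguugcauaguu
let-7f-5p: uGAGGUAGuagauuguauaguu
let-7c-5p: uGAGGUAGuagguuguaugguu
miR-17-5p: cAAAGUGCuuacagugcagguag
miR-106a-5p: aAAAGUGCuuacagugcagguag
miR-20b-5p: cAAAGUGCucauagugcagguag
miR-20a-5p: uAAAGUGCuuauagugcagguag
miR-200b-3p: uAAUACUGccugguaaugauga
miR-200c-3p: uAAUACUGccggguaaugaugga
miR-192-5p: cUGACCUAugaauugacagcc
miR-215-5p: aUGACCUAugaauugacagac
miR-194-5p: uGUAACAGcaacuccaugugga
miR-21-5p: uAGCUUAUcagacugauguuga
miR-19b-3p: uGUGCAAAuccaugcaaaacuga
let-7a-5p is encoded at chr9:94175962-94175983 (plus strand) within the span of MIRLET7A1HG, at chr11:122146568-122146589 (minus strand) within MIR100HG and at chr22:46112752-46112773 (plus strand) within MIRLET7BHG. miR-194-5p is encoded at chr1:220118206-220118227 within the span of IARS2, next to miR-215-5p at chr1:220117916-220117936, and at chr11:64891404-64891425 within MIR194-2HG, next to miR-192-5p at chr11:64891203-64891223, all on the minus strand. miR-21-5p lies at chr17:59841273-59841294 within the span of VMP1, miR-17-5p at chr13:91350618-91350640 within MIR17HG, miR-200b-3p at chr1:1167160-1167181 within MIR200BHG and miR-200c-3p at chr12:6963742-6963764 within MIR200CHG, all on the plus strand.

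The deposited values are intensities after subtraction of each array's background, and a probe is called detected where the file gives such a value. The background, the mean of 320 blank spots after the brightest and dimmest 5% were removed, was 14.9 to 32.5, and the detection level lay 2 SD above it, or 1.33 to 3.84 intensity units. Backgrounds were 28.9, 23.0, 32.5 and 26.6 on arrays 1 to 4 and 20.2, 14.9, 22.4 and 23.1 on arrays 5 to 8. The summed signal of all detected miRNA probes was 115933 to 161716. It averaged 138165 on arrays 1 to 4 and 139718 on arrays 5 to 8. There were 4 spots marked as not good among the control arrays, among them miR-21-5p on array 3 and let-7a-5p on array 4, and these were treated as missing. The intensities of different probes depend on how well each probe binds, so shares and orders below are those of probe signals, not of molecules.

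A single probe, miR-4454, carried 35.8% ± 2.4 (SD, n = 8) of all miRNA signal in untreated OE19 cells. Its background-subtracted intensity was 50037, 49563, 56645 and 41947 on arrays 1 to 4 and 56125, 41815, 47329 and 53175 on arrays 5 to 8. These values were 39.5%, 38.0%, 35.1% and 31.3% of the total on arrays 1 to 4, and 34.7%, 36.1%, 36.5% and 35.1% on arrays 5 to 8. miR-4454 was the brightest miRNA probe on each of the 8 arrays, and the sets overlapped. The miR-7975 probe came second on each array with a share of 8.17% ± 1.39 (SD, n = 8), from 6.68% to 10.9%.

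Ranks 3 and 4 belonged to miR-7977 and miR-1260b on every array, in either order. The share of miR-7977 was 3.66%, 3.80%, 4.72% and 5.80% on arrays 1 to 4 against 2.74%, 2.74%, 2.80% and 2.89% on arrays 5 to 8, without overlap. miR-1260b varied less, at 3.36% ± 0.22 (SD, n = 8), and its highest value on arrays 5 to 8, 3.39%, lay above its lowest on arrays 1 to 4, 3.24%. Its relative miR-1260a was far dimmer, with 0.263% ± 0.023 of the signal (SD, n = 8) and rank 47.

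The letters CACCA stood at or 1 base before the 3′ end of 10 of 2370 mature miRNAs in the RefSeq table (0.422%), and probes for all 10 were on the chip. Together these probes carried 47.6% to 54.3% of the signal, with a median of 51.1%. The letters were read off the 4 brightest probes, which alone held a median of 50.8%, so this sum restates that choice. Anywhere in the sequence the same letters occur in 41 of 2264 probes with a sequence (1.81%). The signal was uneven among the 10. The 5 printed above were detected on all arrays, miR-134-3p on 5 arrays with at most 7.32 intensity units, miR-7114-3p on 3, miR-4252 on 2, and miR-548au-3p and miR-876-5p on none.

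After these 4 probes came miRNAs of gut epithelium and of the let-7 family. The probe of miR-194-5p, which marks columnar gut epithelium, held 2.07%, 1.85%, 2.27% and 2.42% on arrays 1 to 4 and 1.59%, 1.48%, 1.29% and 1.73% on arrays 5 to 8, so that the lower set did not reach the higher one. let-7a-5p followed with 1.66% ± 0.20 (SD, n = 7), miR-4286 with 1.51% ± 0.25, miR-4284 with 1.42% ± 0.40, miR-21-5p, which many tumors express strongly, with 1.29% ± 0.26 (n = 7), and let-7d-5p with 1.28% ± 0.16. Ranks 11 to 20 were held by miR-200b-3p, miR-7641, miR-19b-3p, let-7f-5p, miR-200c-3p, miR-5100, miR-1273g-3p, miR-192-5p, miR-6089 and miR-17-5p, with mean shares from 1.26% down to 0.894%. From rank 5 to rank 20, neighbours in the order differed in mean share by less than the larger of their SDs between arrays.

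**Figure D1:**
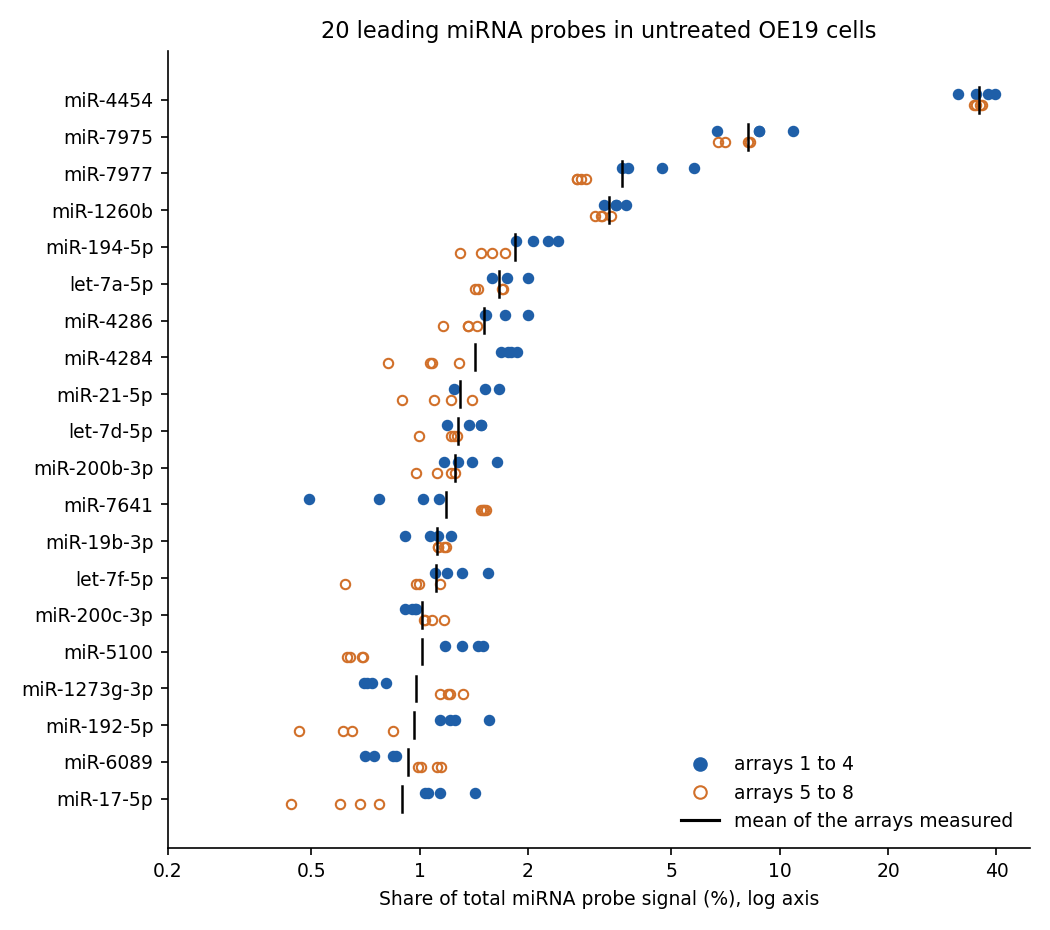
Share of the summed background-subtracted signal (%, log axis) of the 20 leading miRNA probes on each of 8 untreated arrays, with arrays 1 to 4 filled, arrays 5 to 8 open and the mean as a bar. miR-4454 lies between 31.3% and 39.5% on every array, while miR-5100, miR-192-5p and miR-17-5p are lower and miR-7641 and miR-1273g-3p higher on arrays 5 to 8.

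The signal was concentrated in few probes on every array. The 10 probes with the highest mean share held 63.8%, 63.6%, 61.2% and 60.1% of the signal on arrays 1 to 4 and 55.2%, 58.0%, 56.5% and 58.3% on arrays 5 to 8. On arrays 3 and 4 these sums lack miR-21-5p and let-7a-5p, whose spots were not good. The means were 62.2% ± 1.8 and 57.0% ± 1.4 (SD, n = 4 each). The sets did not overlap, and a two-sided exact permutation test gave p = 0.0286, the smallest this design allows, or 0.0571 after Benjamini-Hochberg adjustment over the 3 quantities compared in this way. These sets were already known to stand apart in the heat map of the study, so the 3 tests only describe the arrays. Averaged over arrays, 4 probes made up the first 50% of the signal and 85 probes the first 90%. The probes past the first 100 of each array held 5.86%, 5.85%, 7.27% and 5.28% of the signal on arrays 1 to 4 and 12.2%, 11.2%, 11.6% and 8.75% on arrays 5 to 8, so the tail of dim probes was longer on the latter.

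**Figure D2:**
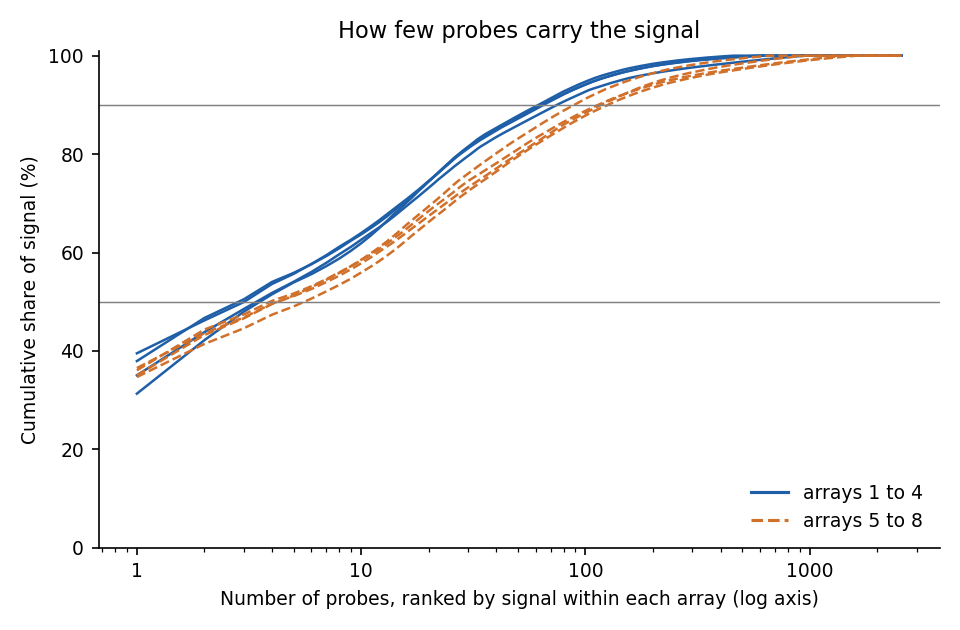
Cumulative share of signal (%) against the number of probes ranked by signal within each array (log axis), 1 line per array, with grey lines at 50% and 90%. Every array starts between 31.3% and 39.5% with its first probe, and the curves of arrays 5 to 8 reach 90% after 89 probes or more, later than the 62 to 75 probes of arrays 1 to 4.

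Which miRNAs led was largely shared between the sets. Of the 10 leading probes of either set 8 were common (80% of each list), of 20 leading probes 15 (75%) and of 50 leading probes 42 (84%). miR-4284 and miR-21-5p were among the first 10 in arrays 1 to 4 alone, and miR-7641 and miR-1273g-3p in arrays 5 to 8 alone. miR-7641 held 0.774%, 1.02%, 0.492% and 1.13% on arrays 1 to 4 and 1.48% to 1.53% on arrays 5 to 8, and miR-4284 went the other way with 1.69% to 1.87% against 0.817% to 1.29%. Neither pair of ranges overlapped.

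Late miRBase numbers held much of the signal. The 920 probes numbered below 1000 together with let-7 carried a median of 31.2% (24.9% to 34.8%), on average 32.8% on arrays 1 to 4 and 28.3% on arrays 5 to 8. Numbers from 3000 to below 5000, which include miR-4454, carried a median of 44.4% with 785 probes, and numbers from 6000, which include miR-7975 and miR-7977, 17.8% with 538 probes. Within the entries below 1000 and let-7 the order began with miR-194-5p at 5.96% ± 0.72 of their signal, let-7a-5p at 5.55% ± 0.41 (n = 7), miR-21-5p at 4.25% ± 0.58 (n = 7), let-7d-5p at 4.19% ± 0.23 and miR-200b-3p at 4.10% ± 0.34 (SD, n = 8 where not given). The 10 leading probes of this class held 37.4% to 41.7% of its signal, so it was less concentrated than the whole profile.

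Summed by seed, let-7 was the brightest family with several members. Its seed, GAGGUAG, was carried by 11 probes, 9 of them detected on all arrays, and together they held 5.65% ± 0.62 of the signal (SD, n = 8, array 4 without let-7a-5p), with 5.77% on arrays 1 to 4 and 5.53% on arrays 5 to 8. The miR-17 seed, AAAGUGC, came next with 3.76% ± 1.16 over 8 probes. This family was brighter on arrays 1 to 4, with 4.76% against 2.76% on arrays 5 to 8. miR-200b-3p, miR-200c-3p and miR-429, which share the seed AAUACUG, held 2.37% ± 0.20, and miR-192-5p with miR-215-5p 1.02% ± 0.39. The latter pair also differed in level between sets, at 1.35% against 0.687%. Members of a family can be nearly identical, as miR-17-5p and miR-106a-5p, which differ only in their first base. Whether such probes read each other's RNA was not tested, so a family sum may count an RNA more than once.

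Most epithelial miRNAs of the lists and all of the gut list were detected on every array. Of all probes 15.8% were detected on every array, and 21.1% of those numbered below 1000 together with let-7. All 3 columnar gut miRNAs were found on every array, with a summed share of 1.79% to 4.05%. miR-194-5p had a median intensity of 2592, miR-192-5p of 1411 and miR-215-5p of 74.1, and the same order of these probes held on all 8 arrays. Of the miR-200 family, 7 of 9 probes were detected on all arrays, and miR-200c-5p and miR-141-5p on 5 and 6 of them. All 9 probes of let-7 and miR-98 (let-7a-5p on the 7 arrays with a good spot) and all 6 of the miR-106b-25 cluster were detected throughout, as were 9 of 12 probes of miR-17-92. From the last cluster miR-92a-1-5p was found on no array. The squamous and secretory list was split. miR-203a-3p, known from squamous epithelium, was detected on all arrays with a median of 308, miR-375, known from secretory epithelium, on all with 17.4, and miR-205-5p, which squamous cells express strongly, on 3 arrays with at most 3.24.

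Markers of other cell types held little signal, with few exceptions. None of the 9 blood cell miRNAs was detected on all 8 arrays and 2 on none, beside 15.8% and 27.5% of all probes. miR-223-3p, which marks myeloid cells, and miR-144-3p, which marks red cells, were those detected on none, and the erythroid miR-451a reached 3.66 to 10.4 on 7 arrays. miR-486-5p, also known from red cells, was detected on 4 arrays with 4.77 on array 3, 3.42 and 3.58 on arrays 6 and 7, and 19.7 on array 5, the highest value of the list. Summed, the blood list held at most 0.0177% of the signal. The 8 stromal and smooth muscle probes held at most 0.0159%. All 8 were detected on some arrays and none on every array, whereas 27.5% of all probes were detected on none. Among them miR-199b-5p was detected on 4 arrays with at most 8.86, miR-214-3p on 3 with at most 7.10, miR-143-3p on 1 and miR-145-5p on 2. Of 7 striated muscle probes 5, namely miR-1-3p, miR-206, miR-208a-3p, miR-208b-3p and miR-499a-5p, were detected on no array. miR-133a-3p was detected on 1 array with 3.00 and miR-133b on 3 with at most 3.95. miR-122-5p, the marker of hepatocytes, was detected on 1 array with 1.60. The endothelial miR-126-3p was the clearest exception, with 52.8, 47.8, 68.6 and 56.6 on arrays 1 to 4 and 37.1, 26.0, 19.3 and 41.9 on arrays 5 to 8, and the neural list held miR-9-5p, miR-9-3p and miR-128-3p on all arrays with medians of 12.2, 10.8 and 22.7.

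Large clusters with restricted expression had few probes detected on every array, but most of their probes were detected on some arrays. Of all probes, 15.8% were detected on every array and 27.5% on none. From the placental cluster on chromosome 19 (C19MC) none of 37 probes was detected on all arrays, 29 on some and 8 on none, and their sum stayed within 0.0619% of the signal. From the imprinted 14q32 cluster 1 of 55 probes was detected on all arrays, miR-494-3p, with at most 549 intensity units, rank 50 and a mean share of 0.137% on arrays 1 to 4 and 0.341% on arrays 5 to 8, whereas 39 were detected on some and 15 on none. The Xq27 cluster, known from testis, had 1 of 14 on all arrays, miR-513a-5p, 8 on some and 5 on none. The level of miR-513a-5p was 11.8, 8.20, 19.9 and 5.26 on arrays 1 to 4 and 65.4, 43.7, 82.3 and 51.9 on arrays 5 to 8. Both exceptions were brighter on arrays 5 to 8. None of the 9 embryonic stem cell probes and none of the 7 multiciliated cell probes was detected on all arrays, and 5 and 4 of them were detected on none.

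**Figure D3:**
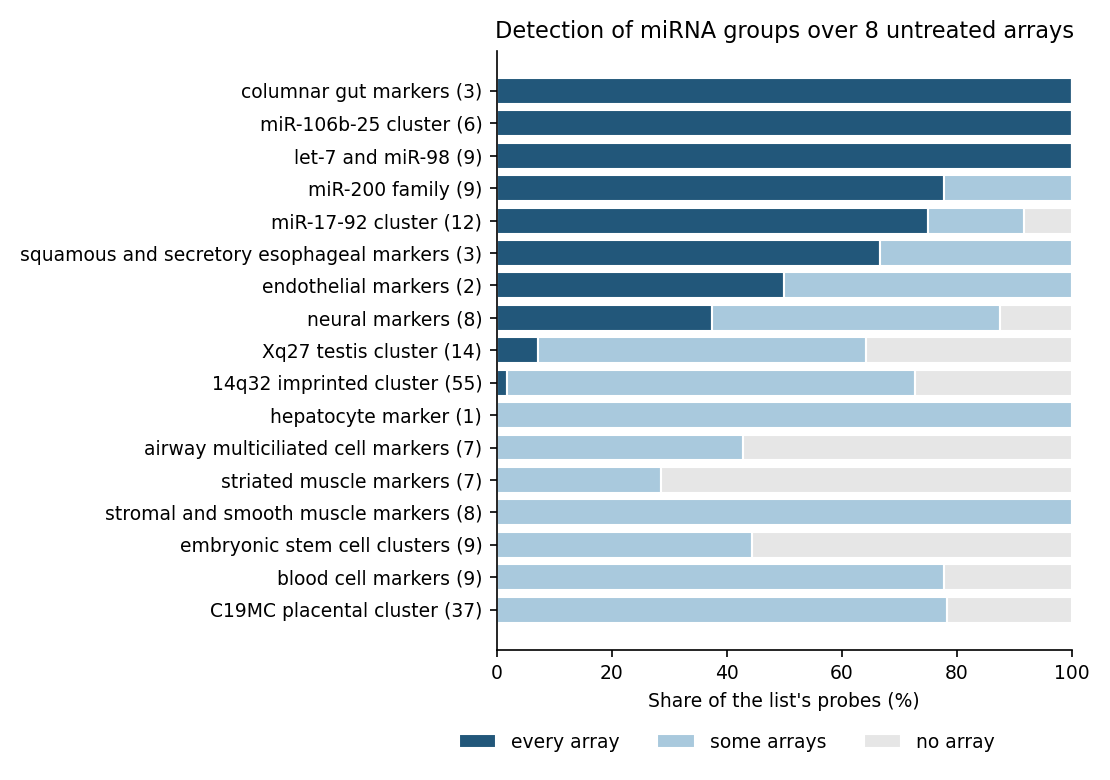
Share of the probes of each list (%, number of probes in parentheses) that were detected on every array, on some arrays or on no array of untreated OE19 cells. All 3 columnar gut, 6 miR-106b-25 and 9 let-7 probes were detected on every array, whereas no probe of the blood, stromal, striated muscle, stem cell, multiciliated and C19MC lists was.

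Absence depended on the array. The number of detected miRNA probes was 579, 617, 946 and 453 on arrays 1 to 4 and 1621, 1460, 961 and 661 on arrays 5 to 8. The sets overlapped, and their means, 649 ± 210 and 1176 ± 444 (SD, n = 4 each), gave p = 0.0571 in a two-sided exact permutation test (adjusted p = 0.0571). Over all arrays 405 of 2565 probes (15.8%) were detected on every array with a good spot and 705 (27.5%) on none. Arrays 1 to 4 alone left 1570 probes (61.2%) without detection, and arrays 5 to 8 alone 794 (31.0%). There were 42 probes detected on no array of 1 to 4 and on all of 5 to 8, and 0 of the opposite kind. The background averaged 27.7 on arrays 1 to 4 and 20.1 on arrays 5 to 8. Array 3 had the highest background and the most detected probes of its set. Arrays 5 and 6 had the lowest backgrounds and the most detected probes of theirs. The SD of the blank spots, which sets the detection level, was 1.26, 1.11, 1.43 and 1.89 on arrays 1 to 4. On arrays 5 to 8 it was 0.776, 0.665, 1.18 and 1.92. The part of the background or of this SD in the counts was not tested.

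Detection also went along with base composition. Of the 705 probes detected on none, 633 had a mature sequence in the table, and their median content of G and C was 40.9% (quartiles 36.4% and 50%). The 358 sequences of probes detected on all arrays had a median of 59.1% (quartiles 47.8% and 71.4%). Among miRNAs with under 40% G and C, 251 of 402 (62.4%) were detected on no array and 31 (7.71%) on all. Among those with 70% or more, 16 of 228 (7.02%) were detected on none and 100 (43.9%) on all. The same held in each set, where 316 of the 402 sequences under 40% were undetected on arrays 1 to 4 and 274 on arrays 5 to 8, against 55 and 22 of the 228 G- and C-rich ones. This is a description across probes, which are not replicates.

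The arm balance was examined in hairpins with a probe for each arm. Of 838 such hairpins, 42 had both arms detected on all arrays, and 15.3% had neither arm on any array. Among the 42, the 5p probe was brighter on average in 29 and the 3p probe in 13, the same 29 and 13 in each set by their set means. The direction was the same on every array in 24 of the 29 and in 13 of the 13. The difference exceeded 2-fold in 33 hairpins and 8-fold in 21. No hairpin turned its mean direction between sets.

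The most one-sided 5p hairpins were those of miR-21, miR-192, miR-93, miR-20a, miR-106b and miR-31. miR-21-5p measured 1580, 2176 and 2036 on arrays 1, 2 and 4 and 1770, 1417, 1159 and 2124 on arrays 5 to 8, against 13.9, 8.80, 21.6 and 11.2 and then 16.7, 11.7, 14.8 and 15.5 for miR-21-3p. The log2 ratio of 5p to 3p was 7.05 ± 0.54 (SD, n = 7), a 132-fold difference, with 172-fold on arrays 1 to 4 and 108-fold on arrays 5 to 8. For miR-192 the ratio was 6.57 ± 0.34, for miR-93 6.33 ± 0.67, for miR-20a 6.23 ± 0.34, for miR-106b 5.52 ± 0.39 and for miR-31 4.93 ± 0.27 (log2, SD, n = 8). miR-192, miR-93, miR-20a and miR-106b therefore lay between 45.9-fold and 94.9-fold on average. On its lowest array the dim 3p arm was only 1.00-fold the detection level for miR-93 and 1.40-fold for miR-20a. These ratios thus rest in part on values near that level. For the others of this group it was 2.13-fold to 3.48-fold.

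On the other side stood miR-200b, miR-25, miR-203a, miR-22, miR-29c and miR-200a. Both arms of miR-200b and of miR-25 are shown to make the contrast visible, with the seed in capitals, and the bright arm is the 3p arm in each pair.
miR-200b-5p: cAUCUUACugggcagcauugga
miR-200b-3p: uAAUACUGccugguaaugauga
miR-25-5p: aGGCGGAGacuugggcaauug
miR-25-3p: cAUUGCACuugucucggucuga
miR-200b-3p measured 1772, 1665, 1884 and 2195 on arrays 1 to 4 and 2023, 1294, 1263 and 1855 on arrays 5 to 8, while miR-200b-5p stayed between 16.6 and 33.9. The log2 ratio of 5p to 3p was -6.17 ± 0.19 (SD, n = 8), or 72.0-fold in favour of 3p, and it was -6.17 in both sets. It had the smallest SD of these 12 hairpins. The ratios were -6.11 ± 0.46 for miR-25, -5.38 ± 0.38 for miR-203a, -4.56 ± 0.48 for miR-22, -4.38 ± 0.45 for miR-29c and -4.24 ± 0.72 for miR-200a (log2, SD, n = 8). On its lowest array the dim 5p arm was only 1.04-fold the detection level for miR-29c, 1.14-fold for miR-25 and 1.83-fold for miR-203a. For the others of this group it was 3.67-fold to 6.71-fold. miR-25 shares its transcript with miR-93 and miR-106b, whose 5p probes were the brighter ones, so that arms of opposite side led within 1 cluster.

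**Figure D4:**
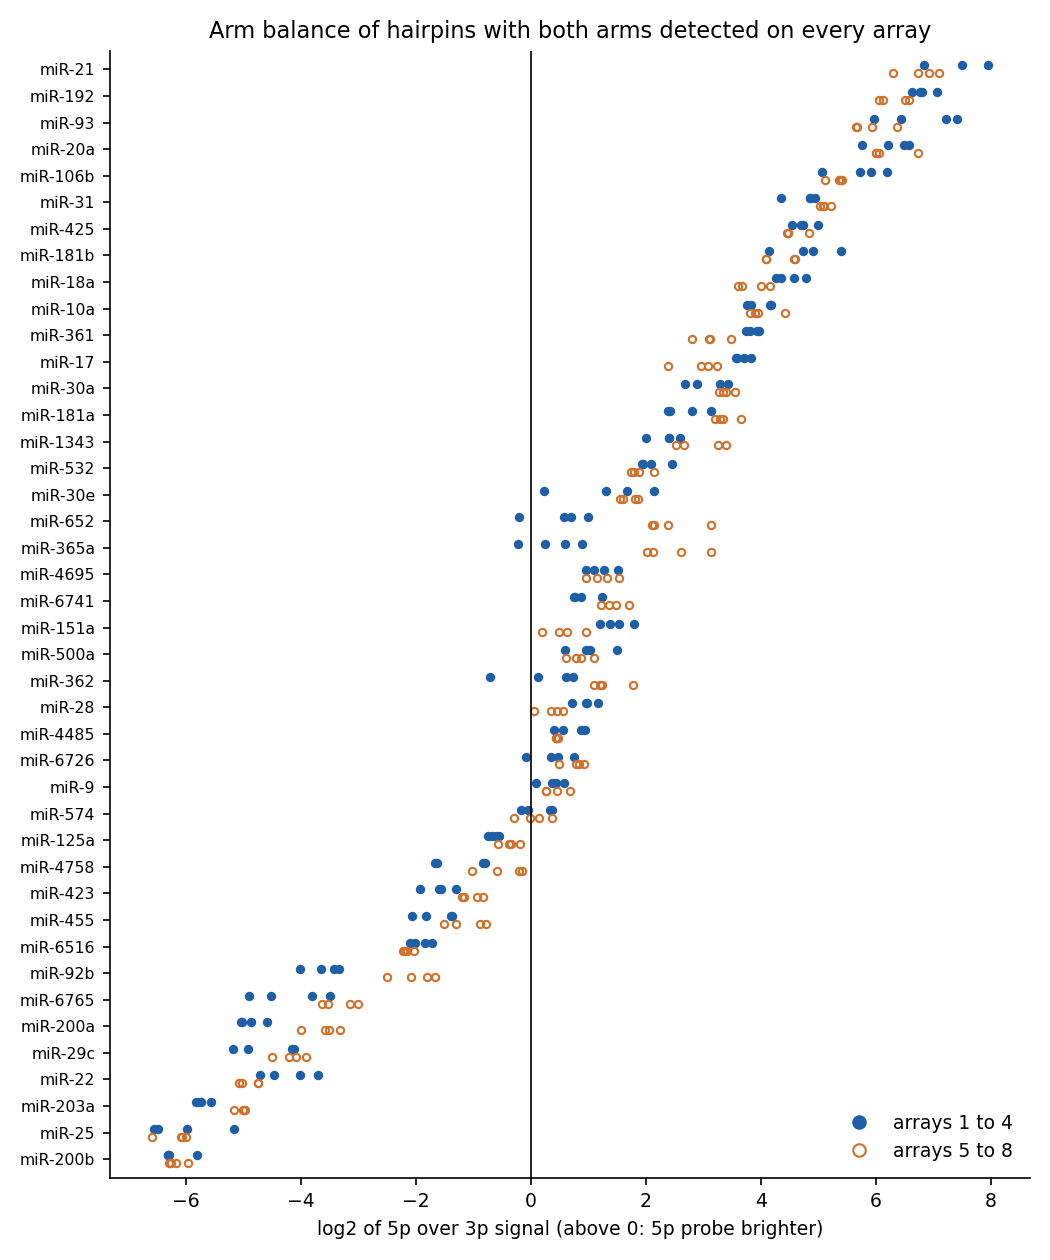
Log2 ratio of 5p to 3p background-subtracted signal for the 42 hairpins with both arms detected on every array, 1 point per array, arrays 1 to 4 filled and 5 to 8 open. Hairpins run from miR-21 at 7.05 to miR-200b at -6.17, and the points of both sets lie on the same side of 0 in all but 5 hairpins near the middle.

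Between sets, the arm ratios moved without any hairpin changing its mean direction. The median below is taken over signed ratios, so a higher value does not mean a larger difference between the arms. The median log2 ratio over the 42 hairpins was 1.12, 0.91, 0.59 and 0.86 on arrays 1 to 4 and 1.21, 1.08, 1.57 and 1.18 on arrays 5 to 8. The means were 0.87 ± 0.22 and 1.26 ± 0.21 (SD, n = 4 each), and the two-sided exact permutation p was 0.0571 (adjusted p = 0.0571). This difference of -0.39 depended on which hairpins were kept. It was 0.57 over the 4 hairpins with both arms at 2 times the raw detection level (exact permutation test, adjusted p = 0.0429) and -0.15 over the 23 with both arms at 2 times the subtracted level (adjusted p = 0.514). In 5 hairpins the set means differed by more than 1 on the log2 scale. miR-365a went from 0.38 on arrays 1 to 4 to 2.47 on arrays 5 to 8, miR-652 from 0.52 to 2.44, miR-362 from 0.19 to 1.33, miR-92b from -3.60 to -2.02 and miR-200a from -4.88 to -3.60. The 3p probe used for miR-365a also names miR-365b-3p, so its ratio is not that of a single hairpin. Directions differed among single arrays in 5 hairpins, miR-652, miR-365a, miR-362, miR-6726 and miR-574, of which miR-574 was split evenly with 4 arrays on each side.

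A further 15 hairpins had 1 arm detected on all arrays and the other on none, 10 with the 5p arm and 5 with the 3p arm detected. Since the silent arm has only an upper limit, the detected arm was set against the detection level of each array. On the array with its lowest bound let-7i-5p was at least 29.9-fold above it, and the bound was 63.2-fold in the median over arrays. Lowest bounds were at least 15.3-fold for miR-187-5p, 14.8-fold for miR-96-5p, 12.1-fold for miR-10b-5p, 6.77-fold for miR-374c-5p, 4.65-fold for miR-4745-5p and 3.09-fold for miR-186-5p. The bound of miR-513a-5p depended on the set, with a median of 4.199-fold on arrays 1 to 4 and 33.8-fold on arrays 5 to 8, and was at least 1.39-fold on its lowest array. The 3p arm of miR-301a, which the study also overexpressed in OE19 cells, was at least 4.98-fold above the level on every array, with medians of 14.03-fold on arrays 1 to 4 and 9.20-fold on arrays 5 to 8, and that of miR-1307 at least 2.33-fold. miR-196b-5p, miR-491-5p, miR-5585-3p, miR-301b-3p and miR-552-3p came close to the level, with lowest bounds of 1.19-fold to 1.62-fold, and for miR-5585-3p the median bound was 1.55-fold on arrays 1 to 4 and 6.91-fold on arrays 5 to 8.

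How far the baseline depends on the array set was measured with limma, on log2 values of the 405 probes detected on every array, quantile normalized, with let-7a-5p and miR-21-5p fitted on 7 arrays. Of these, 140 were higher in arrays 1 to 4 than in arrays 5 to 8 (34.6%) and 146 were lower (36.0%) at an adjusted p under 0.05. This comparison describes the arrays, since the sets were already known to stand apart. Pairs of arrays correlated at 0.977 to 0.997 within a set and at 0.874 to 0.967 between sets, across the 405 probes, which are not replicates. Among the 20 leading probes 6 were higher and 5 lower in arrays 1 to 4, 30% and 25%, near the background of all fitted probes. Those higher were miR-7977, miR-4284, let-7f-5p, miR-5100, miR-192-5p and miR-17-5p, and those lower were miR-1260b, miR-7641, miR-200c-3p, miR-1273g-3p and miR-6089. Scaling each array by its total signal turned miR-1260b, and scaling by the median turned miR-1260b, miR-200c-3p, miR-1273g-3p and miR-6089. miR-4454, always the brightest, has a difference of 0 by the construction of quantile normalization.

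The choice of scaling sets where 0 lies. Relative to quantile normalization, the median difference of all fitted probes moved from 0.00 to 0.30 on the log2 scale with median scaling and to -0.54 with total scaling, and the share of higher calls moved from 49.0% to 65.6% and 21.3%. The direction of 274 of the 286 calls was the same with median scaling and of 245 with total scaling. The 10 largest differences to either side kept their direction and passed the threshold under both scalings.

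The 10 miRNAs highest in arrays 1 to 4 relative to arrays 5 to 8 were miR-455-3p, miR-301a-3p, miR-20a-3p, miR-9-5p, miR-9-3p, miR-26b-5p, miR-10a-3p, miR-660-5p, miR-126-3p and miR-30e-3p, with log2 differences from 2.00 down to 1.55. The 10 at the other end were miR-1275, miR-6819-5p, miR-4294, miR-513a-5p, miR-6743-5p, miR-1246, miR-6165, miR-4442, miR-1973 and miR-5006-5p, with differences from -2.08 to -1.53. For 3 of each end with a sequence in the table the letters G and C are set in capitals, to show how their base composition differs.
miR-455-3p: GCaGuCCauGGGCauauaCaC
miR-301a-3p: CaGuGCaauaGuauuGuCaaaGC
miR-20a-3p: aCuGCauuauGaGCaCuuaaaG
miR-1275: GuGGGGGaGaGGCuGuC
miR-6819-5p: uuGGGGuGGaGGGCCaaGGaGC
miR-513a-5p: uuCaCaGGGaGGuGuCau
Their G and C contents are 52.4%, 39.1% and 36.4% for the first 3 and 70.6%, 68.2% and 50% for the others. miR-301a-3p lies at chr17:59151149-59151171 on the minus strand within the span of SKA2, and miR-1275 at chr6:34000018-34000034 on the minus strand.

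miR-301a-3p measured 32.1, 33.9, 48.4 and 42.1 intensity units on arrays 1 to 4 and 20.6, 17.3, 11.8 and 20.5 on arrays 5 to 8, without overlap. After quantile normalization its log2 difference was 1.88 ± 0.18 (SE, limma adjusted p = 0.000151). It was 1.18 with total scaling and 2.02 with median scaling. miR-1275 measured 17.9, 14.97, 13.4 and 11.6 on arrays 1 to 4 and 121, 68.0, 133.6 and 78.7 on arrays 5 to 8, again without overlap. The quantile-normalized log2 difference was -2.08 ± 0.27 (SE, limma adjusted p = 0.000402), against -2.74 with total scaling and -1.90 with median scaling. Brighter probes moved as well. miR-1973 measured 401 to 534 on arrays 1 to 4 and 1037 to 1680 on arrays 5 to 8. Its quantile-normalized log2 difference was -1.58 ± 0.18 (SE, limma adjusted p = 0.000200), against -1.59 with total scaling and -0.75 with median scaling.

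Across the 358 fitted miRNAs with a sequence, 88.4% of the 405, the difference between sets went along with base composition. Pearson's r between the G and C content and the log2 difference was -0.57 and Spearman's rho -0.60, a description across miRNAs of the same 8 arrays. Of 31 miRNAs under 40% G and C, 25 were higher in arrays 1 to 4 and 0 lower, with a median difference of 0.91. Of 100 miRNAs with 70% or more, 6 were higher and 66 lower, with a median of -0.45. Among all 405 fitted probes 34.6% were higher and 36.0% lower. The medians of the 3 bins between were 0.55, 0.09 and -0.42. With total scaling and with median scaling r was -0.62. The bin medians depended on the scaling. From low to high content they were 0.47, 0.16, -0.32, -1.06 and -1.10 with total scaling.

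**Figure D5:**
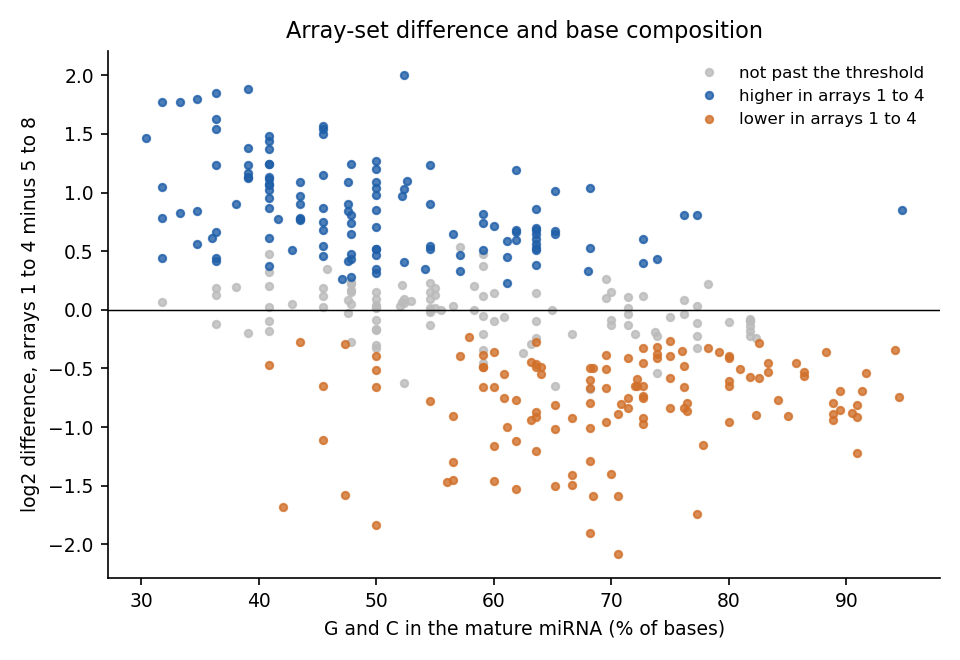
Log2 difference between arrays 1 to 4 and arrays 5 to 8 (limma, quantile normalized) against the content of G and C (% of bases) of the mature miRNA, 1 point per miRNA, colored by whether the adjusted p was under 0.05. Most points under 40% lie above 0, with a median of 0.91, and most points from 70% lie below 0, with a median of -0.45.

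The calls within the groups described above depended on the scaling, and differences between groups were not tested. With total scaling 15.3% of all fitted probes were higher in arrays 1 to 4 and 56.5% lower, and with median scaling 48.4% and 25.4%. In the miR-17-92 cluster 7 of 9 fitted probes were higher and 0 lower, beside 34.6% higher among all fitted probes, with a median log2 difference of 0.78. With total scaling 5 of the 9 were higher and the median was 0.53, where miR-17-3p lost its call and miR-18a-3p lost its call and turned to -0.11. With median scaling all 9 were higher.

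In the miR-200 family 5 of 7 were higher and 1, miR-200c-3p, lower (higher with median scaling), with a median of 0.87. With total scaling 2 of the 7, miR-200a-3p and miR-141-3p, were higher and 0 lower, and the median was 0.26. With median scaling all 7 were higher and the median was 1.10. Of the columnar gut miRNAs miR-192-5p and miR-215-5p were higher, and miR-194-5p did not pass, at 0.18 ± 0.10 (SE, limma adjusted p = 0.142). With total scaling miR-194-5p passed, at 0.50 (limma adjusted p = 0.00612), and miR-215-5p did not, at 0.34 (limma adjusted p = 0.113), and with median scaling all 3 passed. let-7 and miR-98 had 3 of 9 higher and 1 lower, close to the share among all fitted probes, with 1 higher and 1 lower with total scaling and 8 higher with median scaling. In the miR-106b-25 cluster 1 of 6 was higher and 0 lower, and with total scaling this call, of miR-106b-3p, was lost at -0.28 (limma adjusted p = 0.206) and the median went from 0.15 to -0.12. With median scaling 5 of the 6 were higher and the median was 0.72.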

How the data were processed

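Control OE19 RNA was hybridized to 8 single-color human miRNA chips (3D-Gene, version 21.0). The authors scanned the chips, and the deposited intensity of each spot is given raw and after subtraction of the background, the mean of the blank spots, and spots not above the detection level hold no value. The level of 2 SD and the background recomputed from 320 blank spots gave those of the files on each array. The authors also deposited quantile-normalized intensity values of 382 probes, used as an alternative. Shares were taken of the summed background-subtracted signal of each array. Arms were paired by name. Arrays 1 to 4 and 5 to 8 were compared by two-sided exact permutation tests and, across the 405 probes detected on all arrays, with limma 3.58.1 in R 4.3.3 (log2, quantile normalization, lmFit, eBayes, Benjamini-Hochberg adjustment), after a test on simulated data. No probe intensity carries a depth, so the number of arrays limits the precision. Mature sequences of RefSeq matched 2264 probes. The genes named are the 20 leading probes, the 6 most one-sided hairpins of each direction, hairpins with 1 silent arm, the 10 largest set differences of each sign and the members of 17 lists, and miR-1260a, further seed family members and hairpins that differ between arrays or sets were named after their values were seen. The members, lists and tests were chosen with earlier results of these data known. Alternatives were the raw intensity, the authors' normalized values, other scalings, a level of 3 SD, other arm filters and pairings, spots marked as not good, each set alone and each array left out. Labels give the dye as Hy3 and, in the labeling protocol, as Hy5. The 8 telmisartan arrays were not analysed here.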

Additional observations from a re-analysis of the deposited data

Results flagged for a closer look

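Of 52 quantities looked at, each over 8 arrays (7 where a spot was missing), 3 had 1 array apart from the other arrays, and chance sets about 1 in 20 such groups apart. The log2 ratio of 5p to 3p of miR-31 was 4.35 on array 2 and 4.85 to 5.22 on the others. That of miR-25 was -5.17 on array 3 and -6.59 to -5.97 on the others. The hepatocyte marker miR-122-5p held 0.00138% of the signal on array 6 and was not detected on the others. With 0 on all other arrays, any single detection stands apart, so the rate above does not apply to this marker.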

How the results depend on the processing

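Among all values recomputed under alternatives, 15 moved, 8 newly passed the threshold and 2 turned direction. The others kept their direction and, for set differences, their side of the threshold. Set differences were judged by these alone, so their size could change. Mean levels counted as kept shifted by less than their SD between arrays. Without background subtraction the 10 leading probes held 52.2%, 8 probes carried 50% of the signal and the median log2 ratio of 5p to 3p was 0.44. Restricted to entries below 1000 and let-7, the 10 leading probes held 39.4% and 14 probes carried 50%. The set difference of that share was 1.24 in place of 5.18 percentage points (adjusted p = 0.314 by exact permutation). The authors' normalized values gave a median log2 arm ratio of 0.69, and a difference between sets in the share of the 10 leading probes of -0.46 in place of 5.18 percentage points. Quantile normalization, by construction, gives every array the same distribution. With detection at 3 SD, 1108 probes were found on no array, and the set differences in the share of the leading probes, 5.16, and in the median arm ratio, -0.62, had adjusted p = 0.0429 by exact permutation. Arrays 1 to 4 alone gave 1570 probes on no array and a median arm ratio of 0.67 over 47 hairpins. Arrays 5 to 8 alone gave 25.5% of probes on all arrays, in place of 15.8%, and the 5p arm higher in 72 of 100 hairpins. With both arms at 2 times the raw detection level, only 4 hairpins were left, 3 with the 5p arm higher, and the set difference of the median arm ratio was 0.57 in place of -0.39 (adjusted p = 0.0429 by exact permutation). At 2 times the subtracted level, chosen after seeing the data, 23 were left, 15 with the 5p arm higher, and the set difference was -0.15 (adjusted p = 0.514 by exact permutation). Fitting only the probes brighter than the median gave 150 differences between sets, in place of 286 of 405, since fewer were tested. The cause of the other changes was not tested.

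With each array left out, the share of the 10 leading probes was 59.0% to 60.2% and its set difference 4.60 to 5.86, the set difference of detected probes -699 to -379, the set difference of the median arm ratio -0.45 to -0.27, and the hairpins with the 5p arm higher 29 to 44, the latter 44 of 60 without array 4. The adjusted exact p fell to 0.0429 for the share without array 1, 4 or 8, for the arm ratio without array 1 or 4 and for detected probes without array 8. Calls between sets numbered 261 to 286, probes on all arrays 15.8% to 18.7% and probes on none 705 to 946. No paired analysis was possible because arrays 1 to 4 and arrays 5 to 8 share no replicate number. A probe near the detection level, 1.33 to 3.84 units, can be called present on 1 array and absent on another at the same RNA level, and absence here means under that level only.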
